A study of Mus musculus with 3 samples.

Results

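The genes examined here are 10 transcription factors grouped as muscle, fat and cartilage lineage regulators. They are Myod1, Myf5, Myf6, Sox9, Sox6, Meox2, Twist1, Pparg, Cebpa and Mixl1. Their loci were taken as 9 windows of the mouse mm9 genome, Myf5 and Myf6 sharing 1, and every deposited Cbx2 peak that overlapped a window was kept. This gave 8 of the 2217 peaks analysed. They lay in 3 of the 9 windows, 5 at Sox6, 2 at Sox9 and 1 at Twist1, while the windows of Myod1, Myf5 and Myf6, Meox2, Pparg, Cebpa and Mixl1 overlapped no peak. A peak is assigned to a gene here only by lying in that gene's window.

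Cbx2 was profiled by chromatin immunoprecipitation and sequencing (ChIP-seq) in C3H10T1/2, a mouse embryo line of mesenchymal progenitors that can be turned into muscle, fat or cartilage cells in culture. For the first ChIP library, cells stably carried FLAG-HA-tagged wild-type histone H3.3 (WT). The other is titled as coming from H3.3K36M cells (K36M), in which the introduced H3.3 has methionine in place of lysine 36. The genotype label of all 3 libraries, including 1 input DNA library, names wild-type H3.3, so K36M rests on the title and the design text. Neither the promoter driving the transgenes nor whether each line was 1 clone or a pool is stated in the labels. Depth was 29278813 reads in WT and 36243012 in K36M, with 1 library per group, so no difference below could be set against a spread between replicates and no test of the conditions was made. Where peaks or loci are compared with each other by intervals, the comparison holds for these 2 libraries alone. All intervals cover counting error only and take the reads as independent. Copies made by PCR cannot be told from separate molecules here, so the intervals may be too narrow. The peak table holds no expression values, so the labelled cell type could not be checked against marker genes.

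Cbx2 belongs to Polycomb repressive complex 1 (PRC1), in which its chromodomain binds histone H3 trimethylated at lysine 27, the mark laid down by Polycomb repressive complex 2, and Polycomb complexes are known for holding lineage regulators silent in cells that do not use them. In mammals they gather over promoters rich in CpG dinucleotides. The K36M histone blocks methyltransferases of lysine 36, a residue whose methylation hinders methylation of lysine 27. Among the genes of this set, Sox9 is the principal regulator of cartilage formation, and Sox6 acts beside it in chondrocytes. Twist1 is a basic helix-loop-helix factor of embryonic mesenchyme. Myod1, Myf5 and Myf6 are myogenic basic helix-loop-helix factors, and Meox2 is a homeobox factor of somites and limb muscle. Pparg, a nuclear receptor, and Cebpa, a leucine zipper factor, drive fat cell differentiation. Mixl1 is a homeobox factor of early mesoderm and endoderm.

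Promoter sequences are shown because genes with and without a Cbx2 peak in their window both had promoters with more CpGs than the median promoter. RefSeq sequence on GRCm38.p6 was at hand for 6 of the 10 genes (Sox6, Twist1, Cebpa, Pparg, Meox2 and Myf5) and not for Myod1, Myf6, Sox9 or Mixl1. The 250 bases before the most upstream listed start site of 4 of these genes are printed 5′ to 3′ with each CpG in capitals. They are Twist1 (chr12:33957421-33957670, plus strand), Sox6 (chr7:116038745-116038994, minus strand), Cebpa (chr7:35119043-35119292, plus strand) and Myf5 (chr10:107486135-107486384, minus strand). Peaks are in mm9 coordinates and these sequences in GRCm38, so whether a peak covers a start site was not determined.
Twist1: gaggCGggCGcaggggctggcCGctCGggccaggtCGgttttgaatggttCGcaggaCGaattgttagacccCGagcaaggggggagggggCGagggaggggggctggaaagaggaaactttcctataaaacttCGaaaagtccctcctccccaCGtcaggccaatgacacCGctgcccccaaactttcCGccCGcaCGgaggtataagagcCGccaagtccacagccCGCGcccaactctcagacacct
Sox6: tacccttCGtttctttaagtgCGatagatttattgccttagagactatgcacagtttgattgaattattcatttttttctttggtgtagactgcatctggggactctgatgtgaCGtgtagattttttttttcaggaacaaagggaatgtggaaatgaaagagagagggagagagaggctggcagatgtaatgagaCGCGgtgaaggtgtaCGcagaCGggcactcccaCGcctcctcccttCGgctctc
Cebpa: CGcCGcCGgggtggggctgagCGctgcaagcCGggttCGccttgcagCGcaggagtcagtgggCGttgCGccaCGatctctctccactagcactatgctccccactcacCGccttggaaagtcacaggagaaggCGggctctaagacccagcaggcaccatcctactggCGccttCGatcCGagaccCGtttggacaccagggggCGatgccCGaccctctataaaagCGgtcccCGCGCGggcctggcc
Myf5: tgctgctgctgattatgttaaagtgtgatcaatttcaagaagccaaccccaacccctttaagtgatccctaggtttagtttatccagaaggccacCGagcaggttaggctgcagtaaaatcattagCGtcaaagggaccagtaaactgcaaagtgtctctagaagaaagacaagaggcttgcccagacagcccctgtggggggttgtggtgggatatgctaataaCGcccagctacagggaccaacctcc

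The motif counted was CG, which reads the same on both strands. Of the 32851 promoter windows of this length in the table, 92.1% held at least 1, with a median of 6 and quartiles of 2 and 16. The Twist1 promoter held 18 CpGs, a number reached by 21.7% of all promoters. For Sox6 the most upstream promoter held 9, reached by 40.3%. The other 5 listed Sox6 promoters held 10, 2, 2, 2 and 1, all but the first of these below the median. The most upstream Sox6 promoter was 45.2% G and C, below the median of 52.4% over all promoters, and the Twist1 promoter was 62.4%. Twist1 and Sox6, with peaks in their windows, therefore had a promoter above the median of all promoters. Cebpa held 22 and the most upstream Pparg promoter 38, numbers reached by 14.8% and 1.88% of promoters, although no peak overlapped either window. The other listed Pparg promoters held 12 and 2, the latter below the median. Meox2 held 12. Only Myf5, with 3, was below the median among these most upstream promoters. In the most upstream promoter, Cebpa and Pparg thus held more CpGs than Twist1 and Sox6, Meox2 lay between them, and Myf5 held fewer. Sox9, with peaks in its window, is missing here, and bases past the start site were not counted. Whether any peak covers these promoters was not determined, so whether CpG number goes with Cbx2 peaks was not tested.

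**Figure D1:**
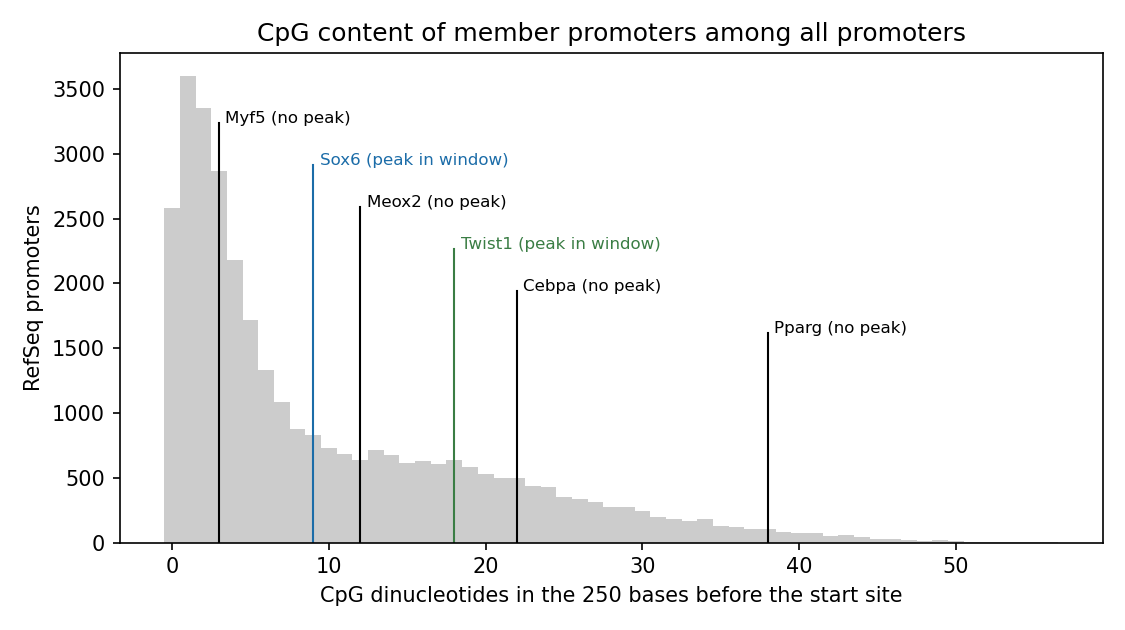
CpG dinucleotides in the 250 bases before each start site (horizontal axis) for all 32851 RefSeq promoters (grey bars, number of promoters), with the most upstream promoter of 6 genes marked by vertical lines. Cebpa (22) and Pparg (38), with no peak in their windows, lie above Twist1 (18) and Sox6 (9), which have one.

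At Sox9 the table held a pair of short, weak peaks 3400 bp apart, near the middle of the 70 kb window (chr11:112610000-112680000). The first (chr11:112643400-112644199, 800 bp) held 1.78 reads per 1000000 library reads (RPM) in WT, from 52 reads, and 0.911 RPM in K36M, from 33 reads. The second (chr11:112647600-112647999, 400 bp, the shortest length in the table) held 1.09 RPM in WT and 0.414 RPM in K36M, from 32 and 15 reads. Both were thus lower in K36M. The K36M/WT ratios were 0.513 (95% exact interval 0.321 to 0.808) and 0.379 (0.191 to 0.720), and these intervals overlap. Summed over both peaks the ratio was 0.462 (0.317 to 0.666), a 2.17-fold lower signal. In WT only 29.3% and 16.0% of all peaks held less RPM than these, so the cartilage regulator Sox9 carried a weak listing. Read density was not low, at 13.0 and 16.0 reads per 200 bp in WT, against a median of 13.8 over all peaks. Other peaks of 800 bp, 121 in number, held a median of 53 WT reads and 24 K36M reads, and the 427 others of 400 bp held 27 and 14.

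Sox6, the other cartilage factor, had the most Cbx2 signal of the set, 82.1% of the member RPM in WT and 80.9% in K36M. Its window is also the longest, 630 of the 1310 kb searched. Peaks covered 2.70% of this window, against 4.8% at Twist1 and 1.71% at Sox9. The 5 Sox6 peaks are numbered here by position. They spanned 70.2 kb, and the first started 67800 bp before the upper end of the 630 kb window (chr7:122600000-123230000). RefSeq places Sox6 on the minus strand, so the upper end is the side of its start, and the gene next to it there on GRCm38 is 1110004F10Rik. No peak lay in the first 562200 bp of the window. The locus had 5 of the 47 peaks on chromosome 7 and 13.7% of their summed WT RPM.

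Peak 1 of Sox6 (chr7:123162200-123162999) held 1.61 RPM in WT and 0.883 RPM in K36M, from 47 and 32 reads. Peak 2 (chr7:123186200-123190599), 4400 bp long, held 8.78 RPM in WT and 4.64 RPM in K36M, from 257 and 168 reads. These are the peaks farthest from the upper end of the window, and they had the highest ratios of the locus. These were 0.550 (0.340 to 0.880) and 0.528 (0.432 to 0.644).

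The other 3 lay 25400 bp further on, with gaps of 2400 and 2200 bp between them. Peak 3 (chr7:123216000-123216999) held 2.77 RPM in WT and 0.524 RPM in K36M, from 81 and 19 reads. Its ratio of 0.189 (0.109 to 0.315), a 5.28-fold lower signal, was the lowest of the 8. Peak 4 (chr7:123219400-123225999), 6600 bp long and longer than 92.1% of all peaks, had the most RPM of the set in both libraries. Its WT density was the lowest of the 8. It held 13.1 RPM (WT) and 4.86 RPM (K36M), from 384 and 176 reads. Its ratio was 0.370 (0.308 to 0.444). Peak 5 (chr7:123228200-123232399) held 11.7 RPM in WT and 2.92 RPM in K36M, from 343 and 106 reads. Its ratio was 0.250 (0.199 to 0.311). It crosses the upper end of the window. In WT, peaks 3 and 5 were denser than their neighbours, at 16.2 and 16.3 reads per 200 bp, against 11.6 to 11.8 in peaks 1, 2 and 4. Only 5.19%, 4.51% and 3.88% of all peaks were less dense in WT than peaks 1, 2 and 4. In K36M peaks 3 and 5 were instead the least dense of the 5, at 3.80 and 5.05 reads per 200 bp. Peak 4 was close to peak 5, at 5.33, while peaks 1 and 2 held 8 and 7.64. The order of density along the locus thus differed between the libraries. A further peak 4.2 kb beyond the window (chr7:123234200-123235199) held 2.39 RPM in WT and 0.773 RPM in K36M. Its ratio was 0.323 (0.201 to 0.508).

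Summed over its 5 peaks, Sox6 held 38.0 RPM in WT and 13.8 RPM in K36M. The ratio of the sums was 0.364 (0.327 to 0.405). This sum covers peaks that differed among themselves by more than the counting error of independent reads. Comparing 2 peaks within the same pair of libraries cancels the scaling of the libraries, so their ratios were divided by each other for all 28 pairs of the 8 peaks. The 95% exact conditional interval excluded 1 for 11 pairs, 7 of them among the 10 pairs within Sox6. With the interval widened for 28 pairs, it excluded 1 for 2 pairs, and both were within Sox6. The ratio of peak 2 was 2.12 times that of peak 5 (widened interval 1.32 to 3.42) and 2.79 times that of peak 3 (1.20 to 7.25). No pair with Sox9 or Twist1 was set apart by the widened interval.

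Twist1, the mesenchymal factor, had a single 2400 bp peak (chr12:34636200-34638599) that started 16200 bp into its 50 kb window (chr12:34620000-34670000). It held 5.43 RPM in WT and 1.93 RPM in K36M, from 159 and 70 reads. The ratio was 0.356 (0.265 to 0.474), a 2.81-fold lower signal. This peak was ordinary for its length: the other 62 peaks of 2400 bp held a median of 157.5 WT reads and 66.5 K36M reads, with a median log2 ratio of -1.51 against -1.44 here. Its place among all 2217 peaks was nearly the same in both libraries, with rank 872 in WT and 863 in K36M. On GRCm38 the neighbours of Twist1 are Ferd3l and Hdac9, and no peak lay within 461.0 kb below or 733.8 kb above the window.

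**Figure D2:**
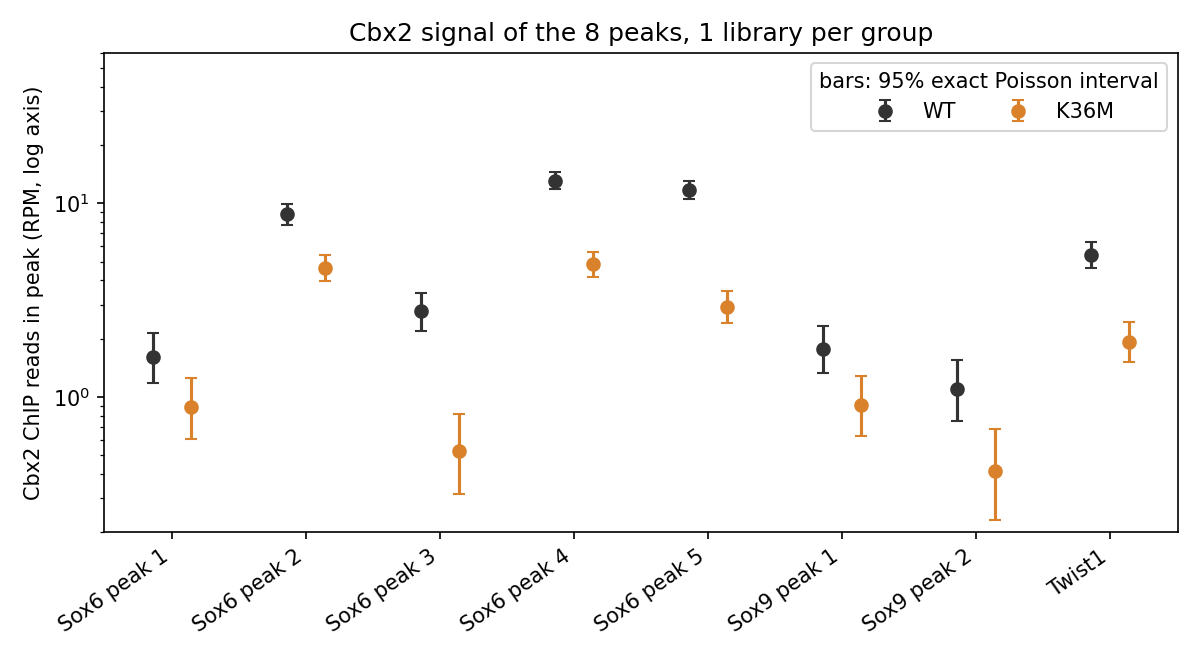
Cbx2 signal in RPM (vertical log axis) of the 8 peaks in the WT and K36M libraries, 1 library each, with 95% exact Poisson intervals for counting error. Every peak lies lower in K36M on this scale. The K36M/WT ratio is lowest at Sox6 peak 3 (2.77 RPM in WT, 0.524 in K36M) and highest at Sox6 peak 1 (1.61 and 0.883 RPM).

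All 8 peaks were lower in K36M, as were 95.4% of all peaks in the table, and at each of the 8 the whole interval of the ratio was under 1, against 86.8% of all peaks. The intervals take the listed peaks as given and make no allowance for how they were picked. The log2 ratio of K36M to WT, computed with a pseudocount of 0.1 RPM, was at or below -1 (at least 2-fold lower) at 5 of the 8 peaks, against 75.3% of all peaks. Sox6 peaks 1 and 2 and the first Sox9 peak missed this limit, with log2 ratios of -0.79, -0.91 and -0.89. On this log2 ratio only Sox6 peak 3, at -2.20, was at least 4-fold lower, against 15.9% of all peaks, and none was at least 2-fold higher, against 0.271% of all peaks. Sox6 peak 5, at -1.97 with the pseudocount, was 4.01-fold lower without it. The median log2 ratio was -1.31 over the 8 peaks and -1.45 over all 2217, whose quartiles were -1.81 and -1.004. Members therefore ranged over the bulk of the table: 81.9% of all peaks had a lower log2 ratio than Sox6 peak 1, and 7.62% had a lower one than Sox6 peak 3. Summed, the 8 peaks held 46.3 RPM in WT and 17.1 RPM in K36M, which gives a ratio of 0.369 (0.335 to 0.406). The sum over the other 2209 peaks gave 0.413 (0.411 to 0.415). By the sums, in which strong peaks weigh most, the members were thus lower than the other peaks. By the median log2 ratio they were higher. Counting only peaks with their midpoint in a window, which leaves out Sox6 peak 5, the log2 ratio of the summed members was -1.29, against -1.28 for the sum over all peaks. Divided by the ratio of the sums over all other peaks, the Sox6 ratio gave a quotient of 0.881 (0.791 to 0.980). Widened for 3 loci, this interval was 0.772 to 1.003. Sox9 and Twist1 had quotients of 1.12 (0.767 to 1.61) and 0.861 (0.640 to 1.15). The loci were not set apart from each other either. The Sox9 ratio divided by the Sox6 ratio was 1.27 (0.856 to 1.86), and Sox6 divided by Twist1 gave 1.02 (0.752 to 1.40). None of these quotients allows for peak length: other peaks had a median log2 ratio of -1.11 at 400 bp and -2.02 at 6600 bp. Sox6 peaks 1, 2 and 4 (-0.79, -0.91 and -1.41) were above the medians for their lengths (-1.38, -1.50 and -2.02). Sox6 peaks 3 and 5 (-2.20 and -1.97) were below theirs (-1.39 and -1.78). Peak 5 was still within the quartiles of the 27 other 4200 bp peaks (-2.16 and -1.10). Sox6 peaks 1, 2, 3 and 4 were outside the quartiles for their lengths. These comparison sets were small for the longer peaks, with 30 others at 4400 bp and 12 at 6600 bp.

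**Figure D3:**
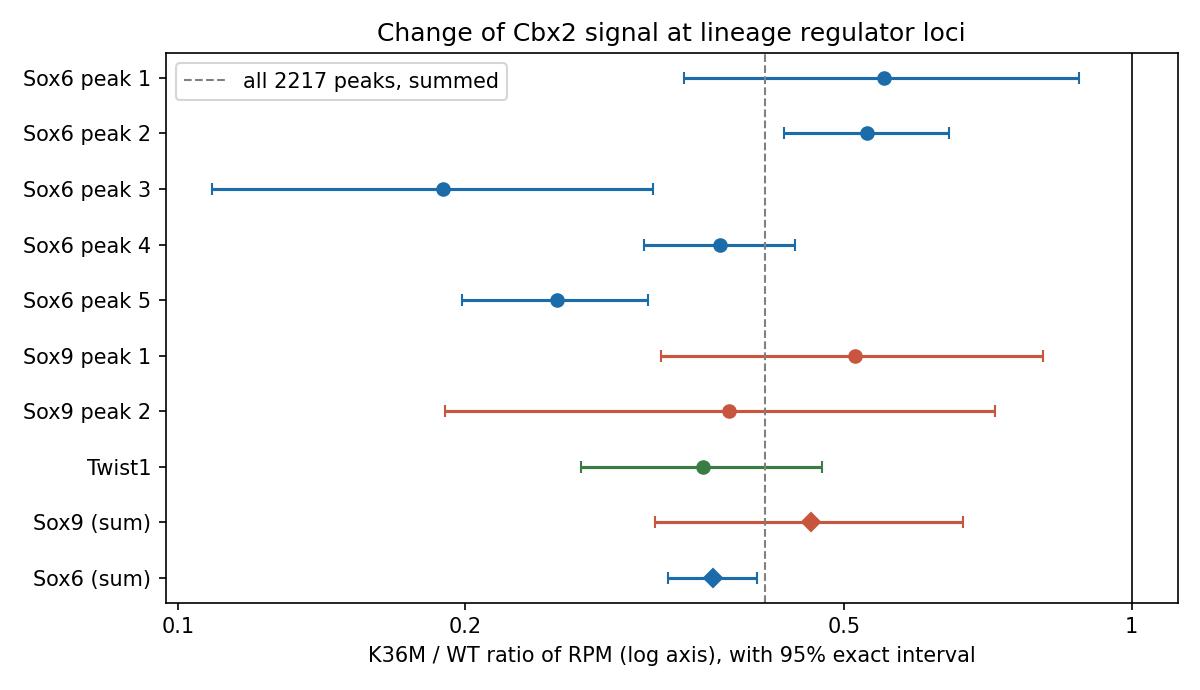
K36M/WT ratio of RPM (horizontal log axis) with 95% exact intervals for the 8 peaks (circles) and for the sums over Sox9 and Sox6 (diamonds). The dashed line is the ratio summed over all 2217 peaks (0.413) and the solid line is 1; Sox6 peaks 3 and 5 have intervals wholly below the dashed line and Sox6 peak 2 wholly above it.

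The direction of these differences depends on the scaling. RPM takes each library's total as the base. If instead the libraries are scaled to the same median over all peaks, the median log2 ratio of all peaks moves by 1.43, to -0.022, and 6 of the 8 members are higher in K36M, against 48.7% of all peaks. Sox6 peaks 3 and 5 are still lower, at log2 ratios of -0.83 and -0.47. None of the 8 is then at least 2-fold lower, against 3.47% of all peaks. That scaling sets the bulk of the peaks equal by construction, so it shows only how members stand to the other peaks. No spike-in is described in the labels, and no column of the table is named for the input, so a lower enrichment of the K36M library and less Cbx2 at these sites cannot be told apart.

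**Figure D4:**
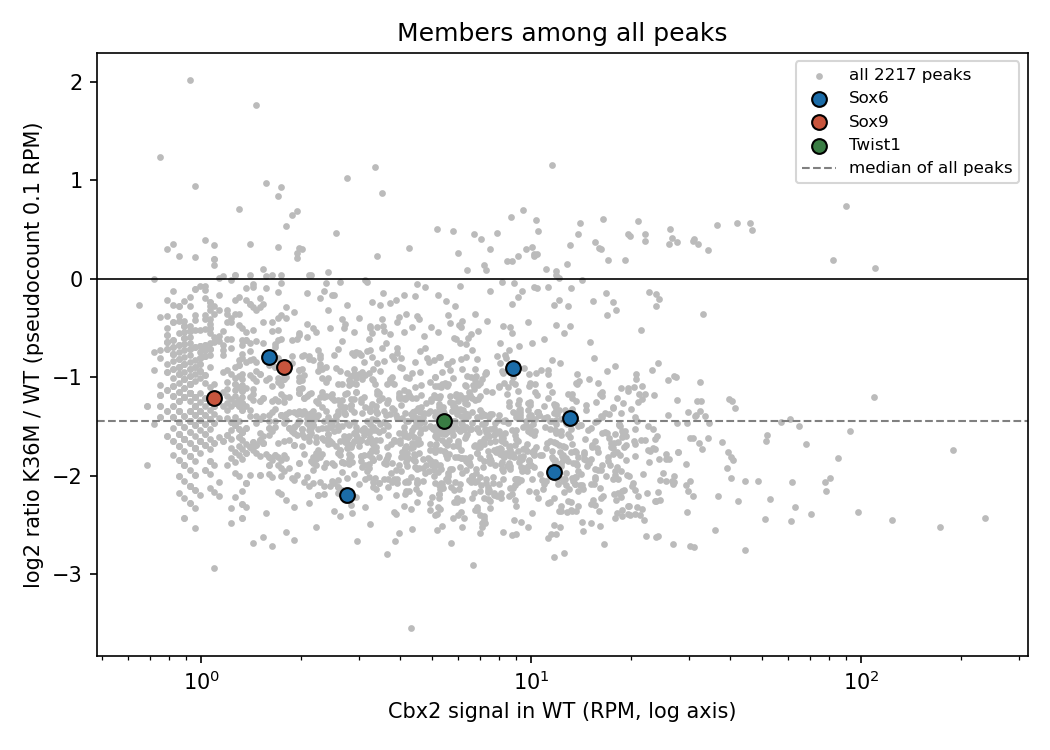
log2 ratio of K36M to WT (vertical axis, pseudocount 0.1 RPM) against WT signal in RPM (horizontal log axis) for all 2217 peaks (grey), with the peaks of Sox6, Sox9 and Twist1 in colour. The 8 members lie between -2.20 and -0.79 on either side of the median of all peaks (dashed, -1.45).

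In WT, the lowest density of any peak in the table was 9.5 reads per 200 bp. On the RPM scale, all 8 members lay below that density in K36M, as did 86.9% of all peaks. With an equal median over all peaks, 1 of the 8 did, Sox6 peak 3, against 15.9% of all peaks. Since the list has this lower edge in WT, a window with no listed peak is not shown to lack Cbx2. In K36M the lowest density of a listed peak was 1 read per 200 bp. If peaks were listed for their WT signal, that choice alone would lower K36M/WT ratios, and how much was not tested.

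The muscle and fat regulators had no listed Cbx2 peak in their windows, and the distance to the nearest peak varied widely. Around the 60 kb Myod1 window (chr7:53600000-53660000) the nearest peak was 566.2 kb above it (chr7:54226200-54227399), at 2.63 RPM (WT) and 0.717 RPM (K36M). On the lower side, 884.6 kb away, a 3800 bp peak was about as strong in K36M (14.2 RPM) as in WT (12.8 RPM), a ratio of 1.11 (0.967 to 1.27). The shared window of Myf5 and Myf6 (chr10:106870000-106960000) was farther from any peak than those of the other genes, at 2598.4 kb. Whether these distances are unusual was not tested. Below the Meox2 window (chr12:37800000-37930000), by 349.8 kb, lay a broad 9400 bp peak (chr12:37440800-37450199) of 19.0 RPM (WT) and 6.29 RPM (K36M), more than any of the 8 members. Its ratio was 0.331 (0.283 to 0.387).

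For the fat regulators the surroundings contrasted. A domain of 11200 bp (chr6:115140000-115151199) lay 138.8 kb below the Pparg window (chr6:115290000-115460000), on the side where Syn2 is the neighbouring gene on GRCm38. It held 31.0 RPM in WT and 10.0 RPM in K36M, with a K36M/WT ratio of 0.324 (0.286 to 0.366). Above that window the nearest peak was 5157.2 kb away. The Cebpa window (chr7:35880000-35940000) had no peak within 1023.2 kb, and the nearest one held 1.37 RPM in WT and 0.855 RPM in K36M. Strong Cbx2 signal thus lay nearer to Pparg than to Cebpa. For the early mesoderm factor Mixl1 (chr1:182600000-182650000), a weak 400 bp peak lay 130.8 kb above the window, at 0.990 RPM (WT) and 0.579 RPM (K36M). The nearest peak below it, 2369.4 kb away, was higher in K36M, at 1.93 RPM, than in WT, at 0.956 RPM. Its ratio was 2.02 (1.29 to 3.25). Which genes these outlying peaks belong to was not determined.

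**Figure D5:**
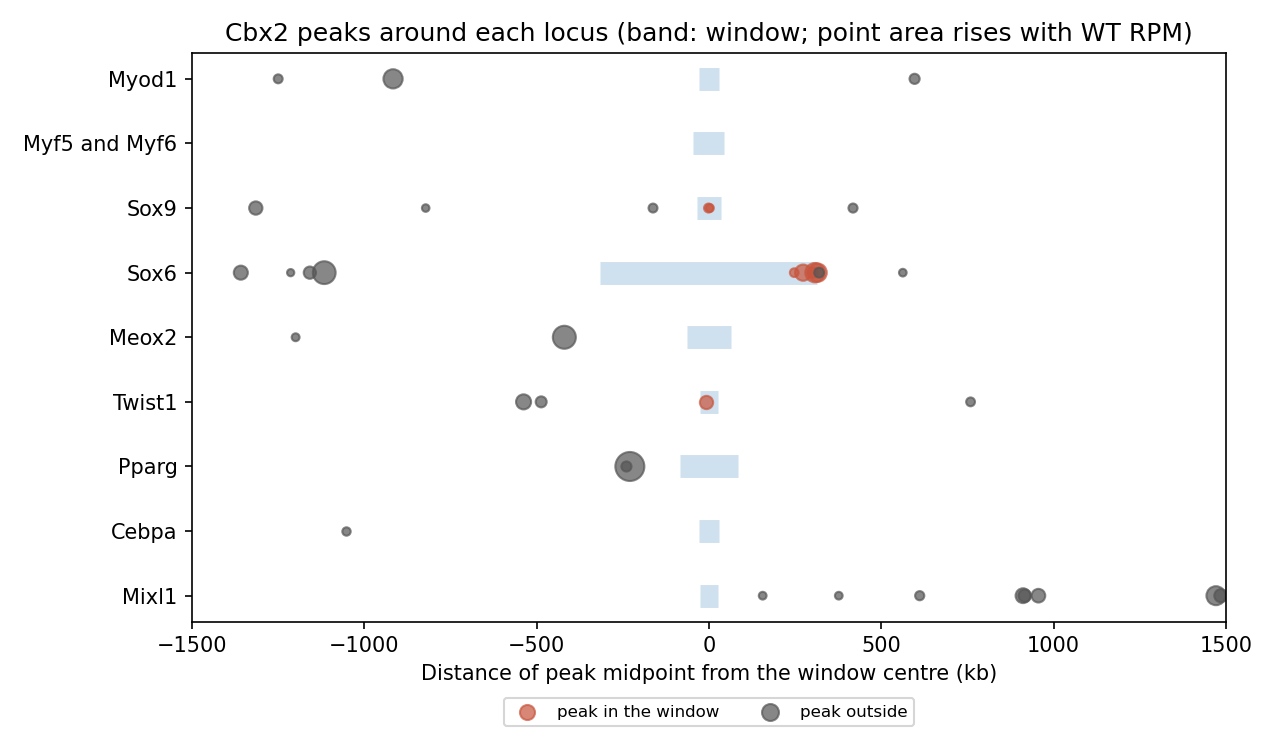
Cbx2 peaks within 1500 kb of the centre of each of the 9 windows (horizontal axis, distance of the peak midpoint from the window centre in kb); bands are the windows and point area rises with WT RPM. Peaks inside a window (red) occur at Sox9, Sox6 and Twist1, with the Sox6 peaks gathered at the upper end, and no peak appears in the Myf5 and Myf6 row.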

How the data were processed

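Alignment was by Bowtie 1.0.0 on mm9, per the submitters' processing notes. How peaks were called, from which libraries, and whether the input entered is not given in the sources used here. The deposited table gives the authors' peaks with a WT and a K36M value headed RPKM. These deposited values were read as RPM, because in both columns 100% were whole multiples of 1 step, within 1e-06 of a read, whatever the peak length. That step was assumed to be 1 read, and reads per peak, library sizes and all intervals rest on this. The WT column was read as the Cbx2 ChIP, not the input, since Cbx2 stands in the table's name. The header alone leaves both readings possible, and every WT value and ratio depends on this choice.

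Peaks overlapping a window by any amount were members, and all were named. Members and lists were chosen with earlier results of these data known. The other lineage genes planned for description were not used, since no mm9 annotation was at hand. Ratios carry 95% exact (Clopper-Pearson) intervals given the reads of both libraries, single values 95% exact Poisson intervals, and quotients of ratios exact conditional intervals of the odds ratio (scipy 1.17.1). No background was subtracted. Alternatives were other pseudocounts, scalings, fold limits, a filter on low values, other window rules and leaving out loci. The calculations were tested on simulated data.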

Additional observations from a re-analysis of the deposited data

How the results depend on the processing

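No paired analysis was possible because WT and K36M are single ChIP libraries, so no replicate could be left out either, and input subtraction was not run because no column of the table is named for the input. The scaling decided the direction. After scaling to an equal median, upper quartile or sum over all peaks, the median log2 ratio of the members went from -1.31 to 0.11, 0.088 and -0.14, the log2 ratio of their summed signal from -1.44 to 0.092, 0.071 and -0.16, and the number at least 2-fold lower from 5 to 0, 0 and 1. In the same order, the summed log2 ratio became 0.072, 0.051 and -0.18 at Sox6 (from -1.46), 0.42, 0.39 and 0.16 at Sox9 (from -1.12) and 0.039, 0.018 and -0.22 at Twist1 (from -1.49). Log2 ratios of single peaks that turned positive were 0.64, 0.62 and 0.39 at Sox6 peak 1, 0.60, 0.58 and 0.35 at Sox6 peak 2, and 0.54, 0.52 and 0.30 at the first Sox9 peak. With an equal median and upper quartile they were also 0.096 and 0.076 at Sox6 peak 4, 0.12 and 0.100 at the second Sox9 peak, and 0.038 and 0.018 at Twist1. These shifts follow from the construction of the scalings, which multiply K36M by 2.42 to 2.89. The number of members below the lowest WT density went from 8 to 1 with an equal median, a setting added after seeing the data. At a limit of 1.5-fold all 8 members were lower, and at 3-fold 2 were. Counting only peaks with their midpoint in the window leaves out Sox6 peak 5 and gave a summed log2 ratio of -1.29. Without the Sox6 locus, 2 of 3 peaks were at least 2-fold lower, since fewer peaks were counted. Pseudocounts of 0.01 and 1 gave members' medians of -1.41 and -0.96. Under each window rule tried, 3 loci held a peak. Depth limits the short peaks most: the second Sox9 peak rests on 32 and 15 reads.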
